A study of Bos taurus with 6 samples.

Results

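Heterogeneous nuclear ribonucleoproteins, or hnRNPs, are the abundant nuclear proteins that coat newly made RNA. Their transcripts were followed in day-7 bovine blastocysts through 7 named genes: HNRNPK, HNRNPAB, HNRNPA1, HNRNPA2B1, HNRNPC, HNRNPD and HNRNPU. Members were all probe sets of the array whose platform annotation carried exactly 1 of these symbols. This gave 6 of the 24016 probe sets tested, for 5 of the 7 genes. HNRNPK had 2 probe sets and HNRNPAB, HNRNPC, HNRNPD and HNRNPU had 1 each, while HNRNPA1 and HNRNPA2B1 had 0 under their symbols and were not analysed here.

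Each of the 6 Affymetrix GeneChip Bovine Genome Arrays held 1 biotin-labelled sample of blastocysts. In all, 18 Simmental heifers were synchronized, superovulated with hormones and artificially inseminated. In the superovulated group (3 arrays) the embryos stayed in the tract of 9 superovulated donors until day 7. In the synchronized group (3 arrays) embryos of the other 9 donors, which had been superovulated as well, were flushed by endoscope on day 2 as 2-cell embryos, transferred to synchronized recipients without superovulation, and recovered on day 7. The embryos of both groups thus came from superovulated donors and were collected on day 7. Only those of the synchronized group were also flushed on day 2 and transferred, so that handling and maternal environment cannot be told apart. The sources used here do not give the number of embryos or animals behind an array. The p-values therefore speak only for the variation among these 6 arrays, part of which may be technical. Because each sample was a mass of whole blastocysts, fewer cells of a type and less RNA per cell cannot be told apart.

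hnRNPs bind the pre-mRNA as it leaves the polymerase and stay with it through splicing, 3' end formation, export and decay. Many of them recognise short sequence runs in introns and 3' untranslated regions and keep splice sites from being used, often against the SR proteins. In early embryos, the change from stored maternal to newly made embryonic transcripts relies on splicing and packaging of new RNA, in which hnRNPs take part.

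Signals are log2 values per probe set, in which the array medians of 2.75 to 2.8 stand for background. Signals above log2 4 were taken as clear of it. Between 1457 and 1894 probe sets exceeded log2 4 on the superovulated arrays, against 973, 1850 and 1184 on synchronized arrays 1, 2 and 3. The 3' control probe set of GAPDH read 8.67 to 9.14 in the superovulated group, against 7.20, 8.35 and 8.22 in the synchronized group. The gap between the 3' and the middle control probe set of GAPDH was 4.68 to 4.94 in the superovulated group, against 3.26, 4.68 and 4.30 in the synchronized group. Across all probe sets, which are not independent, arrays correlated at 0.93 to 0.97 within the superovulated group, 0.75 to 0.90 within the synchronized group and 0.76 to 0.89 between the groups, so the ranges within the synchronized group and across groups nearly coincided. Bacterial and phage hybridization controls averaged 12.3 on each superovulated array and 12.6 to 13.3 on the synchronized arrays. These measures move with the groups in part, and their share in the results below was not tested. Of 13 probe sets of blastocyst markers, 4 exceeded log2 4 on at least 1 array, those of KRT18, DAB2, GATA6 and ATP1B1, whereas SOX2, KRT8 and the interferon tau gene IFNT2 stayed between 2.27 and 2.44 on all arrays. KRT18 rose by 3.89 and a DAB2 probe set by 2.21 (limma adjusted p = 0.0410 and 0.0387), the latter from a synchronized group near background. Across all probe sets the groups differed in 172, of which 167 (97.1%) were higher in the superovulated group. That share was 70.1% of 137 calls without synchronized array 2 and 17.6% of 802 calls with it as the only array of its group.

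Transcripts of HNRNPK and HNRNPAB were higher in blastocysts from superovulated heifers. The difference was 1.30 on the log2 scale for the brighter HNRNPK probe set (2.47-fold) and 1.68 for HNRNPAB (3.20-fold). The probe sets of HNRNPD, HNRNPU and the dimmer one of HNRNPK differed by 1.90, 1.24 and 0.75 without overlap between the groups, but did not pass the test. HNRNPC, with a difference of 0.86, had groups that overlapped. In limma with Benjamini-Hochberg adjustment over all probe sets, 2 of the 6 members passed an adjusted p of 0.05, both higher, against 0.716% of all probe sets called in either direction and 0.695% called higher. Of those whose mean exceeded log2 4, 7.82% were called higher and 42.5% had no overlap in that direction. The members in that class were HNRNPC, HNRNPD and the brighter HNRNPK probe set. Of these, HNRNPK was called, and HNRNPK and HNRNPD had no overlap. HNRNPAB, with a mean of 3.755, lay outside the class. The groups did not overlap, with the superovulated arrays higher, in 5 of 6 members and in 5.42% of all probe sets. Among probe sets above log2 4 on at least 1 array the share was 31.4%. Of the 5 members in that class HNRNPC overlapped and the rest did not, and the dimmer HNRNPK probe set lay outside it. HNRNPAB and HNRNPU exceeded log2 4 only on superovulated arrays, the group in which they were higher. The median difference of the 6 members was 1.27, against -0.02 over all probe sets and 0.59 over the 1406 with a mean above log2 4.

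**Figure D1:**
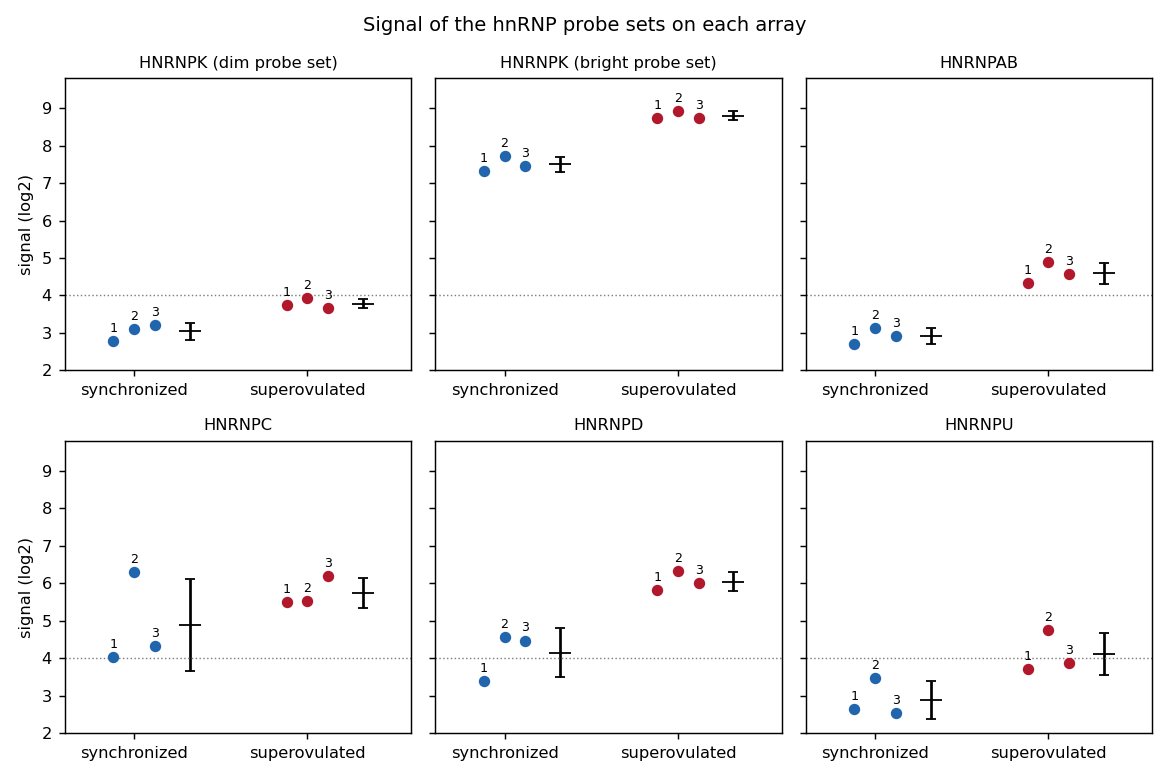
Signal (log2) of the 6 hnRNP probe sets on each array, with numbers for the array within its group, a bar for mean ± SD (n = 3) and a dotted line at log2 4. The groups are separate in every panel but that of HNRNPC, where synchronized array 2 reads 6.29, above all superovulated arrays.

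HNRNPK binds runs of cytosine through KH domains and acts in transcription, splicing and translation. Its brighter probe set read 8.74, 8.94 and 8.73 on arrays 1, 2 and 3 of the superovulated group, against 7.32, 7.72 and 7.46 on those of the synchronized group. All superovulated values lay above all synchronized ones, with a gap of 1.01 between the nearest arrays, and the arrays within each group were close together. The group values were 8.80 ± 0.12 and 7.50 ± 0.20 (SD, n = 3), and the difference of 1.30 had a 95% interval of 0.99 to 1.62 (limma adjusted p = 0.0342). All 6 arrays were far above background for this probe set.

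The dimmer HNRNPK probe set read 3.75, 3.93 and 3.67 in the superovulated group, against 2.79, 3.11 and 3.21 in the synchronized group. It stayed below log2 4 on all 6 arrays. Its difference of 0.75 (95% interval 0.40 to 1.09) had the direction of the brighter probe set and did not pass (limma adjusted p = 0.146). With both groups near background, its size is uncertain.

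HNRNPAB is an RNA- and DNA-binding protein of the same subgroup as HNRNPD, with paired RNA recognition motifs. Its probe set read 4.33, 4.89 and 4.56 in the superovulated group, against 2.70, 3.13 and 2.92 in the synchronized group. The superovulated arrays were all above log2 4 and the synchronized arrays were all near background, with a gap of 1.20 between the nearest arrays. The group values were 4.59 ± 0.28 and 2.92 ± 0.21 (n = 3), and the difference of 1.68 had a 95% interval of 1.20 to 2.15 (limma adjusted p = 0.0438). The fold of this rise is uncertain, since the synchronized group lay near background.

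The calls of HNRNPK and HNRNPAB were lost when most single arrays were left out. Without superovulated array 1, 2 or 3 the limma adjusted p of the brighter HNRNPK probe set was 0.108, 0.116 and 0.107, and without synchronized array 1 or 3 it was 0.0768 and 0.140. Without synchronized array 2 it was 0.0391, the only one of these 6 fits in which it passed. For HNRNPAB the corresponding values were 0.0887, 0.110 and 0.154 without superovulated arrays 1, 2 and 3 and 0.128, 0.0780 and 0.182 without synchronized arrays 1, 2 and 3, none of which passed. The differences themselves moved little, between 1.21 and 1.41 for HNRNPK and between 1.53 and 1.81 for HNRNPAB. After a second quantile normalization the difference of HNRNPK was 0.40 (limma adjusted p = 0.751), and that of HNRNPAB was 1.53 (limma adjusted p = 0.0984).

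HNRNPD, also known as AUF1, binds AU-rich elements in the 3' untranslated regions of short-lived mRNAs and takes part in their decay. Its probe set read 5.81, 6.33 and 6 in the superovulated group, against 3.40, 4.57 and 4.47 in the synchronized group. The groups did not overlap, the gap between the nearest arrays was 1.24, and synchronized array 1 lay well below the others of its group. Among the 6 members it had the largest difference, 1.90 with a 95% interval of 0.96 to 2.84, or 3.73-fold (1.95 to 7.14). The spread in the synchronized group, 4.15 ± 0.65 against 6.05 ± 0.26 (n = 3), was wide and the limma adjusted p was 0.171. It passed where testing was restricted to probe sets whose mean exceeded log2 4 (limma adjusted p = 0.0147). In that fit 441 of the 1406 probe sets tested passed, 413 of them higher in the superovulated group.

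HNRNPU, or scaffold attachment factor A, is a large chromatin-associated hnRNP that binds both RNA and DNA. Its probe set read 3.71, 4.76 and 3.88 in the superovulated group, against 2.64, 3.46 and 2.53 in the synchronized group. The groups were separated by only 0.25, and a single array of the 6, superovulated array 2, exceeded log2 4. The difference was 1.24 (95% interval 0.23 to 2.25) and did not pass (limma adjusted p = 0.568).

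HNRNPC packages nascent transcripts and binds runs of uridine, which keeps cryptic exons out of mRNAs. Its probe set read 5.50, 5.53 and 6.19 in the superovulated group, against 4.02, 6.29 and 4.32 in the synchronized group. Synchronized array 2 was the highest of all 6 and the other synchronized arrays were the lowest, so the groups overlapped. The group values were 5.74 ± 0.39 and 4.88 ± 1.23 (n = 3). The difference of 0.86 had a 95% interval of -0.86 to 2.59 (limma adjusted p = 0.636), which includes both no difference and one larger than that of HNRNPAB.

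**Figure D2:**
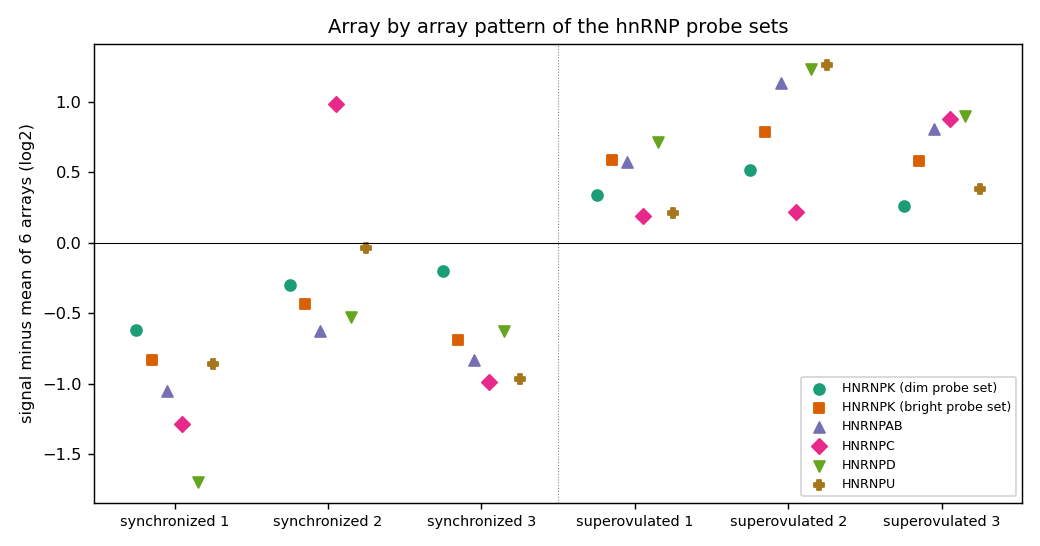
Signal of each hnRNP probe set minus its own mean over the 6 arrays (log2), by array. All probe sets but HNRNPC (pink diamonds) lie below 0 on the 3 synchronized arrays and all lie above 0 on the 3 superovulated arrays, while HNRNPC is highest on synchronized array 2.

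Most members shared the highest array of each group. Superovulated array 2 was the highest of its group in 5 of the 6 probe sets, synchronized array 2 was the highest of its group in 5, and synchronized array 1 was the lowest of all arrays in 5. The mean over the 6 members was 5.31, 5.73 and 5.50 on arrays 1, 2 and 3 of the superovulated group, against 3.81, 4.71 and 4.15 on those of the synchronized group. The exceptions in the superovulated and synchronized groups were HNRNPC, highest on superovulated array 3, and the dimmer HNRNPK probe set, highest on synchronized array 3.

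Synchronized array 2, with 1850 probe sets above log2 4, was as bright as the superovulated arrays. With this array alone against the 3 superovulated ones, the brighter HNRNPK probe set differed by 1.08, HNRNPAB by 1.46, HNRNPD by 1.48, the dimmer HNRNPK probe set by 0.67 and HNRNPU by 0.66. HNRNPC turned to -0.55. In this fit, in which the lone array is assumed to vary like the superovulated ones, none of the 6 passed, with limma adjusted p between 0.0726 and 0.990.

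Bright probe sets in general, those with a mean above log2 4, tended to be higher on the superovulated arrays. After each array was centred on the median of those probe sets, the difference was 1.28 for HNRNPD, 1.06 for HNRNPAB, 0.68 for the brighter HNRNPK probe set, 0.62 for HNRNPU, 0.24 for HNRNPC and 0.12 for the dimmer HNRNPK probe set. All 6 stayed above 0, and HNRNPD was the member that passed (limma adjusted p = 0.0187), with 0.0846 for HNRNPAB and 0.109 for HNRNPK. Among the 6 members the adjusted p in this fit fell strictly as the difference rose. The smallest limma adjusted p over all probe sets was 1.755e-92, a value that 6 arrays cannot bear out. The pass of HNRNPD here therefore speaks for the size of its difference and was not taken as a call. This centring moved the median difference of all 24016 probe sets to -0.65, and of its 647 calls 43.4% were higher in the superovulated group.

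**Figure D3:**
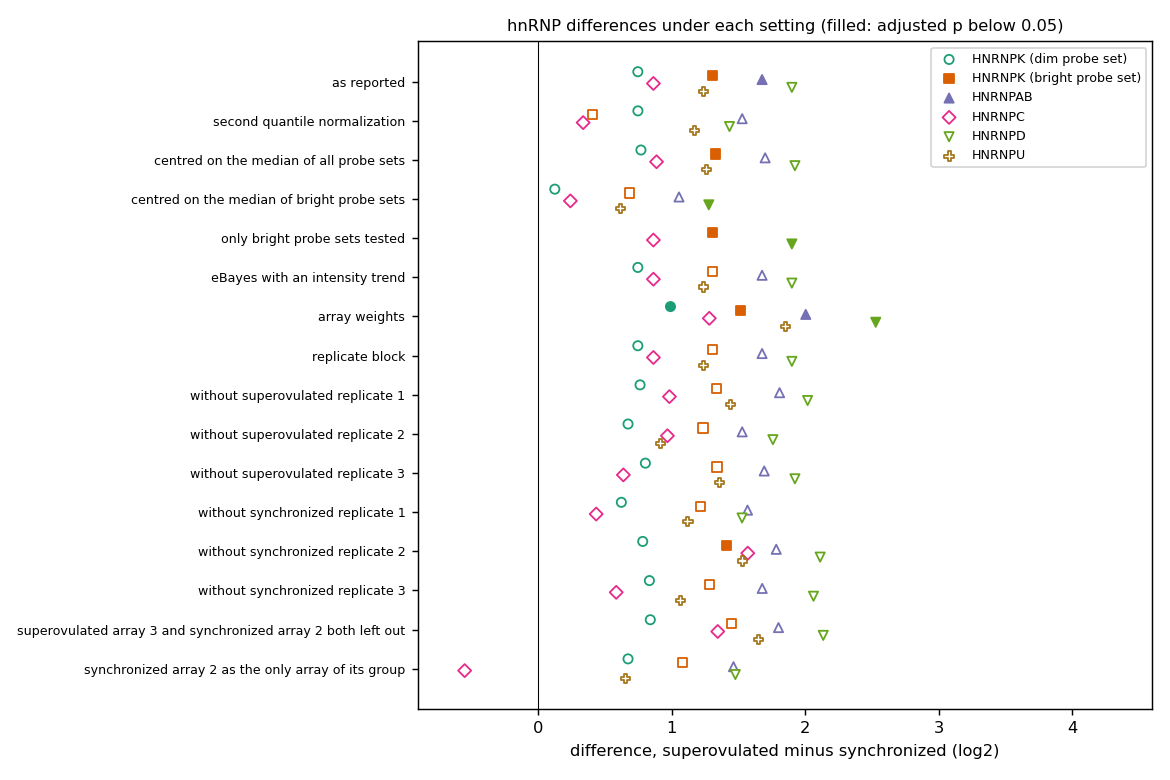
Difference between the groups (log2, superovulated minus synchronized) of each hnRNP probe set as reported and under each alternative setting, with filled symbols where the limma adjusted p was below 0.05. Every symbol lies above 0 except HNRNPC with synchronized array 2 as the only array of its group, at -0.55.

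HNRNPC had the pattern of genes that were high on superovulated array 3 and synchronized array 2. Some markers of cumulus and granulosa cells, which surround the oocyte, were also high there. Of the 4 probe sets of that list above log2 4 on at least 1 array, those of TNFAIP6, INHA and PTX3 were highest on these 2 arrays of their groups and that of HAS2 was not, and 0 had the full order of HNRNPC over the 6 arrays. The mean log2 signal over the 17 probe sets of that list was 2.96, 2.95 and 3.37 on arrays 1, 2 and 3 of the superovulated group, against 3, 3.55 and 3.20 on those of the synchronized group, and the other 13 of the 17 stayed below log2 4 on all arrays. TNFAIP6, a gene of the expanded cumulus matrix that was picked with its values in view, read, on the brighter of its 2 probe sets, 7.38 on superovulated array 3 and 8.47 on synchronized array 2, and 2.99 to 5.96 on the others. CYP19A1, FSHR and AMH of the same list stayed between 2.36 and 3.38 on all arrays, near background. INHA, also of that list, read 6.64 on superovulated array 3 and 6.79 on synchronized array 2, and 4.79 to 4.87 on the others. INHBA read 2.84 and 3.83 on those 2 arrays and 2.53 to 2.60 on the others. A COL1A2 probe set of the same list rose by 0.66 (limma adjusted p = 0.0316) while staying below log2 4. The part of such cells in the HNRNPC values was not tested. The other 5 member probe sets did not have this order of arrays. The oviduct and uterus list had 1 of 11 probe sets above log2 4, one of C3, which rose by 2.56 from near background (limma adjusted p = 0.0373), while OVGP1 stayed at 2.19 to 2.26. The blood list had 1 of 16, that of HBM on synchronized array 1.

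The rest of the hnRNP family was measured by 33 probe sets of 18 genes. In limma 0 of the 33 passed an adjusted p of 0.05 and 5 had an unadjusted p below 0.05, all higher in the superovulated group. Over all 24016 probe sets 0.716% passed, and 1596 had an unadjusted p below 0.05 in limma. The median difference of the 33 was 0.10, with 21 above 0 and 12 below, but 19 did not exceed log2 4 on any array. The 11 with a mean above log2 4 were all above 0, with a median of 0.74. Over all 1406 probe sets of that class 1009 were above 0, with a median of 0.59. In 8 of the 33 the groups did not overlap with the superovulated arrays higher. The share was 5.42% of all probe sets and 31.4% of those above log2 4 on at least 1 array, as 14 of the 33 were. In 2 of the 33 the superovulated arrays were lower without overlap, against 1896 of all 24016.

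The largest differences were in HNRNPUL1, a relative of HNRNPU, and in HNRNPF and HNRNPH2, which bind guanine-rich runs and regulate splicing. An HNRNPUL1 probe set read 8.88, 9.15 and 8.91 in the superovulated group, against 5.18, 5.36 and 6.65 in the synchronized group. The groups were far apart, by 3.25 in their means (limma adjusted p = 0.0641). The other HNRNPUL1 probe sets differed by 0.69 and -0.03.

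An HNRNPF probe set read 9.98, 9.98 and 9.58, then 5.89, 7.66 and 7.47, a difference of 2.84 (limma adjusted p = 0.153). The second HNRNPF probe set differed by 0.74 with no overlap (limma adjusted p = 0.118). HNRNPH2 differed by 1.42 (limma adjusted p = 0.373). In all, 14 of the 33 probe sets exceeded log2 4 on at least 1 array. Of the others named here as examples, HNRNPM read 5.79, 6.06 and 6.18 in the superovulated group, against 3.71, 5.78 and 5.07 in the synchronized group, and an HNRNPA0 probe set read 4.26 to 4.70 on all arrays. PTBP1, the polypyrimidine tract binding protein, lay near background at 2.74 to 2.77, as did the 3 probe sets of HNRNPL at 2.34 to 2.75. HNRNPM, HNRNPA0, PTBP1 and HNRNPL were chosen with their values known.

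**Figure D4:**
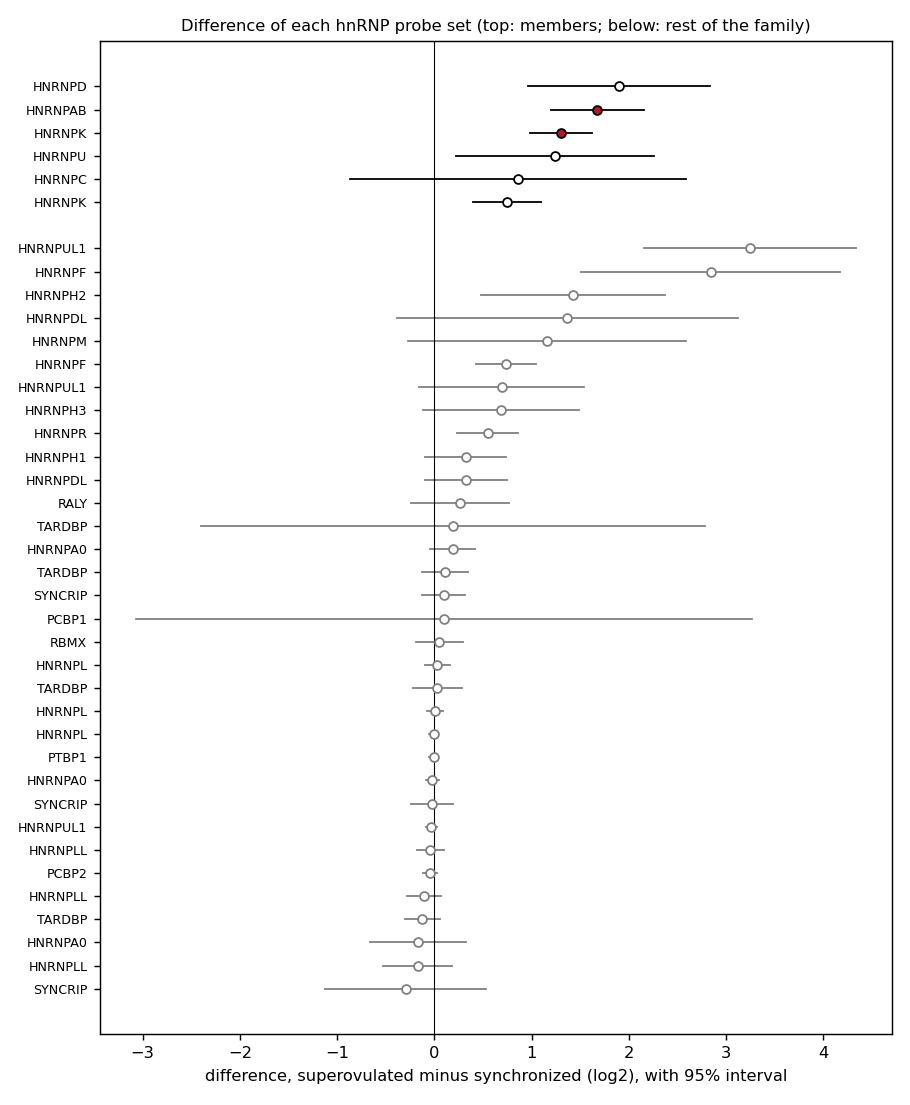
Difference between the groups (log2) with its 95% interval for each of the 6 hnRNP member probe sets (top) and the 33 probe sets of the rest of the family (below), with red points where the limma adjusted p was below 0.05. The red points are those of HNRNPAB and the brighter HNRNPK probe set, and in the family below the intervals are widest for PCBP1 and TARDBP.

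In the lists of genes that work with hnRNPs 0 probe sets passed the test. Over all probe sets 0.716% were called, so 0 calls in lists this small say little. Of 19 probe sets (10 genes) for nuclear import, modification and particle partners 0 passed and 1 had an unadjusted p below 0.05 in limma. Over all 24016 probe sets 1596 had one. The median difference of the 19 was -0.01, and 13 of them did not exceed log2 4 on any array. The brighter probe set of the RNA helicase gene DHX9 differed by 0.92 (limma adjusted p = 0.233) without overlap. The other, near background, differed by -0.04. The import GTPase gene RAN differed by 0.75 (limma adjusted p = 0.636). TNPO1 encodes transportin, the import receptor of several hnRNPs. Its brightest probe set read 5.82, 5.74 and 5.53 in the superovulated group, against 6.50, 5.80 and 6.30 in the synchronized group. The arrays of this probe set overlapped, and its difference of -0.50 was opposite in sign to those of the 6 members (limma adjusted p = 0.636). The other TNPO1 probe sets, near background, differed by -0.06, without overlap, and by -0.02.

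Of 11 mRNA export probe sets 0 passed and 2 had an unadjusted p below 0.05 in limma. The median difference was 0.08. The export adaptor gene ALYREF, the only one above log2 4 on any array, read 5.71, 5.67 and 4.71 in the superovulated group, against 2.83, 2.91 and 4.02 in the synchronized group. These groups did not overlap, and the difference was 2.11 (limma adjusted p = 0.238).

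Among 10 probe sets for other proteins that bind AU-rich elements, as HNRNPD does, 0 passed and 0 had an unadjusted p below 0.05 in limma. The median difference was -0.03, and 7 of the 10 did not exceed log2 4 on any array. The brightest probe set of ZFP36L1, which encodes a decay-promoting protein, differed by -1.53 with an interval of -5.77 to 2.70. It read 6.28 on superovulated array 3 and 8.32 on synchronized array 2. The other ZFP36L1 probe sets, near background, differed by 0.01 and -0.03. TIAL1 differed by 0.18, and the ZFP36L2 probe sets by 0.03 (the brighter) and -0.03. The stabilizing protein gene ELAVL1 stayed at 3.07 to 3.18.

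Of 16 probe sets for transcripts that hnRNPs are known to regulate, 0 passed and 0 had an unadjusted p below 0.05 in limma. The median difference was 0.00, and 13 of the 16 did not exceed log2 4 on any array. The largest difference was 0.65 for a JUN probe set and the next 0.36 for one of FOS, both with overlapping groups. MYC, CCND1 and PKM stayed between 2.52 and 2.81 on all arrays, so no difference could be seen in them at this signal.

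Likeness was measured only for the 3 member probe sets with a mean above log2 4, those of HNRNPC, HNRNPD and the brighter one of HNRNPK. It was taken, over the 6 arrays, as the root mean square difference between log2 signals after each probe set's mean was subtracted, among 965 other probe sets with 1 symbol and a mean above log2 4 per member. For the brighter HNRNPK probe set the nearest genes were BOLA2B at 0.10, RER1, a gene of retrieval to the endoplasmic reticulum, at 0.11, and the translation initiation factor gene EIF5 at 0.12, against a median of 0.65 over all candidates. For HNRNPD they were the small heat shock gene HSPB1 at 0.13, the ubiquitin ligase gene HERC4 at 0.13 and the respiratory complex III gene UQCRB at 0.14, against 0.80. For HNRNPC they were OSER1 at 0.14, NONO, which encodes a nuclear RNA-binding protein of paraspeckles, at 0.17, and PACSIN2 at 0.18, against 0.79. The nearest genes of HNRNPK were separate between the groups and those of HNRNPC were, like it, highest on synchronized array 2. Both follow from how these genes were picked. On the synchronized arrays BOLA2B, RER1 and EIF5 read 3.23 to 3.77, below log2 4, so they met the cutoff on the mean through the superovulated arrays. The brighter HNRNPK probe set was far above log2 4 on all 6 arrays.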

How the data were processed

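Values are log2 expression values as deposited by the authors, 1 per probe set and array, made with GCRMA per the submitters' processing notes; its version and whether the 6 arrays were normalized together are not given in the sources used here. GCRMA subtracts a sequence-dependent background and compresses values near it. Of 24128 rows, 112 control probe sets were set aside. Symbols came from the platform annotation (13292 probe sets with 1 symbol, 86 with several, 10638 with none); the 5 genes found matched the RefSeq gene table of assembly ARS-UCD2.0 by identifier, and no coordinates were taken from it. The test between groups was limma's moderated test (version 3.58.1, R 4.3.3; lmFit, then eBayes), two-sided with no covariate and with Benjamini-Hochberg adjustment over 24016 probe sets. The array number, 3 per group, limits the precision. Alternatives were other normalizations, a filter on dim probe sets, an intensity trend, array weights, a replicate block and leaving out arrays.

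Members and lists were chosen with earlier results of these data known. The genes named were every member probe set, of each other list the probe sets past an adjusted p of 0.05 and otherwise the 3 largest absolute differences among those above log2 4 on at least 1 array, and the 3 genes nearest in pattern to each of the 3 members whose brightest probe set had a mean above log2 4; others are given as examples chosen after their values were seen. Probe sequences were not used here.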

Additional observations from a re-analysis of the deposited data

How the results depend on the processing

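The number of probe sets past an adjusted p of 0.05 in limma depended on the settings. Over all probe sets, 172 became 28 after a second quantile normalization, 647 after centring on bright probe sets (those with a mean above log2 4), 441 among bright probe sets alone, 50 with an intensity trend, 515 with array weights, 1 without both superovulated array 3 and synchronized array 2, 802 against synchronized array 2 alone (17.6% of them higher in the superovulated group), and 26 to 137 when 1 array was left out. The number of members that passed went from 2 to 0 after a second quantile normalization and to 0 with an intensity trend. It was 1 after centring on bright probe sets (HNRNPD) and 1 after centring on the median of all probe sets (the brighter HNRNPK probe set). Among bright probe sets alone it was 2 of the 3 tested, HNRNPD and the brighter HNRNPK probe set. HNRNPAB was not tested there. The number was 4 with array weights, 0 without both superovulated array 3 and synchronized array 2, and 0 to 1 when 1 array was left out. For the rest of the family, 0 became 2 after centring on bright probe sets, 4 among bright probe sets alone, 3 with array weights, 2 against synchronized array 2 alone and 0 to 1 when 1 array was left out. For partners and targets, 0 became 2, 2, 1 and 1 under the first 4 of these. After centring on bright probe sets the smallest limma adjusted p was 1.755e-92, too small for so few arrays. The counts under that setting are therefore uncertain. HNRNPC reversed to -0.55 (adjusted p = 0.990) against synchronized array 2 alone. The causes were not tested. Every other member difference stayed above 0 under all settings in which it was tested. The 2 called member genes stayed 2 with the highest-mean probe set per gene. That count could not change, since only HNRNPK had 2 probe sets and its brighter one was the one called.

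With the replicate number as a block, 0 of all probe sets passed in limma (1382 at an unadjusted p below 0.05) and 0 members, with adjusted p = 0.0917 for HNRNPAB and 0.114 for the brighter HNRNPK probe set. The numbers were not taken as pairs: deviations from the group means correlated across bright probe sets at 0.60, -0.54 and -0.44 for arrays numbered 1, 2 and 3. The largest such correlation, 0.74, was that of superovulated array 3 with synchronized array 2.

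Synchronized signals near background limit the sizes given for HNRNPAB, HNRNPU, the dimmer HNRNPK probe set, DAB2, C3, COL1A2 and ALYREF, among others.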

Other observations

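The order of arrays seen in HNRNPC, with synchronized array 2 highest, superovulated array 3 highest of its group and synchronized array 1 lowest, was noticed after its values were seen. It was found in 11.8% of the 2881 probe sets above log2 4 on at least 1 array (339). In the rest of the hnRNP family 3 of 14 such probe sets had it, among partners 2 of 6 (SAE1 and YBX1), among regulated transcripts 2 of 3 and among blastocyst markers 1 of 4 (ATP1B1). It was 0 of 4 in the cumulus and granulosa list, 0 of 3 in the AU-rich list and 0 of 1 in the mRNA export, oviduct and uterus, and blood lists. These numbers are too small to set against 11.8%. The 3 of the family were PCBP1, a poly-cytosine binding relative of HNRNPK, SYNCRIP and TARDBP. SYNCRIP met it narrowly, at 3.73 on superovulated array 3 against 3.70 on superovulated array 1. PCBP1 read 3.87, 4.22 and 5.90 in the superovulated group, against 2.63, 6.81 and 4.26 in the synchronized group, so its groups overlapped widely. TARDBP, which encodes TDP-43, read 3.66, 4.09 and 5.21 in the superovulated group, against 2.51, 6.01 and 3.86 in the other. Among regulated transcripts the immediate early genes JUN and FOS shared the order, with JUN at 6.77 on superovulated array 3 and 6.99 on synchronized array 2, against 3.95 on synchronized array 1.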
